A study of Homo sapiens with 6 samples.

Results

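Homologous recombination repairs broken DNA by copying the sister chromatid, and the Fanconi anemia pathway unlocks crosslinked DNA at stalled forks and hands it to the same machinery. The ends of a break are resected to single strands, BRCA1, PALB2 and BRCA2 prepare them to invade the matching duplex, and the joined molecules are then taken apart or cut. In the Fanconi anemia branch a core complex of FANC proteins, with the ubiquitin-conjugating enzyme UBE2T, marks the FANCD2-FANCI pair with ubiquitin. Proliferating cells use both, mainly in S and G2 phase.

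The 37 genes of these pathways described here were the rows of the deposited RNA-seq table whose symbol equalled a name on a given list, out of 20348 genes, and the naming rule itself used no measured value, although the list was drawn up with earlier results of these data known. The cells were MV4-11, an established human acute myeloid leukemia (AML) line that carries a KMT2A fusion and an internal tandem duplication of *FLT3*. Of these cells, 3 samples received no treatment (Control, n = 3) and 3 received WNK463, an inhibitor of the WNK kinases, at 1 μM (WNK463, n = 3), with 48 h of culture in both groups. The labels gave the Control samples as untreated and named no solvent, and nothing said that the samples came from separate cultures, so that p-values measure the spread between these samples.

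Total counts were between 14915745 and 17411780 per sample, and 11973 genes passed the filter on low counts, among them all 37 genes. Levels are given as CPM, the counts of a gene relative to the TMM-scaled library total, changes as log2 fold change of WNK463 over Control with its standard error (SE), and adjusted p-values come from edgeR's quasi-likelihood test over all 11973 genes. A gene was called lower or higher at an adjusted p below 0.05. The AML identity markers summed to between 1190 and 1229 CPM in Control and between 1248 and 1257 CPM in WNK463, with 4 of 10 called lower and 5 higher (log2 fold changes from -2.50 for *MPO* to 1.2 for *PTPRC*), whereas no T cell marker exceeded 0.447 CPM and *HBA1*, *HBB*, *MS4A1* and *EPCAM* had 0 counts in every sample. The B cell list summed to at most 3.43 CPM, the erythroid and megakaryocyte list, nearly all of it *ITGA2B*, to 14.15 to 17.65 CPM in Control and 40.6 to 43.2 CPM in WNK463, and the fibroblast and epithelial list, nearly all of it *KRT18*, to 9.80 to 10.55 CPM and 5.99 to 6.89 CPM. The markers of the cell cycle moved with the treatment: 10 of 10 S phase markers were called lower, with a summed level of 3059 to 3063 CPM in Control and 1107 to 1129 CPM in WNK463, and 10 of 10 G2 and M phase markers were called lower, with 2955 to 3197 CPM against 2020 to 2134 CPM. Their part in the changes below was not tested, and in a bulk sample fewer cells of one phase and less RNA per cell cannot be told apart.

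Most recombination and Fanconi anemia genes were lower after WNK463. Of the 37 genes, 27 were called lower (73%, where 35.3% of all tested genes were), 4 were called higher (35.5% of all tested genes were) and 6 did not pass. A fall of at least 2-fold was called in 14 genes (37.8%), against 5.55% of all tested genes. The median log2 fold change was -0.68 over the 37 genes and 0.02 over all tested genes, and the medians of the S phase markers and of the G2 and M phase markers were -1.54 and -0.63. By limma on log2(TPM + 1), 8 genes fell at least 2-fold and the median was -0.35, where that over all tested genes was 0.16. The share of all tested genes that fell at least 2-fold was not computed in that fit. The 3 WNK463 values all lay below the 3 Control values in 27 genes and above them in 3, so that 30 genes did not overlap between the groups, while 73.5% of all tested genes did not overlap. Summed over the 37 genes, the level was 2168 to 2342 CPM in the Control samples and 1694 to 1779 CPM in the WNK463 samples.

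**Figure D1:**
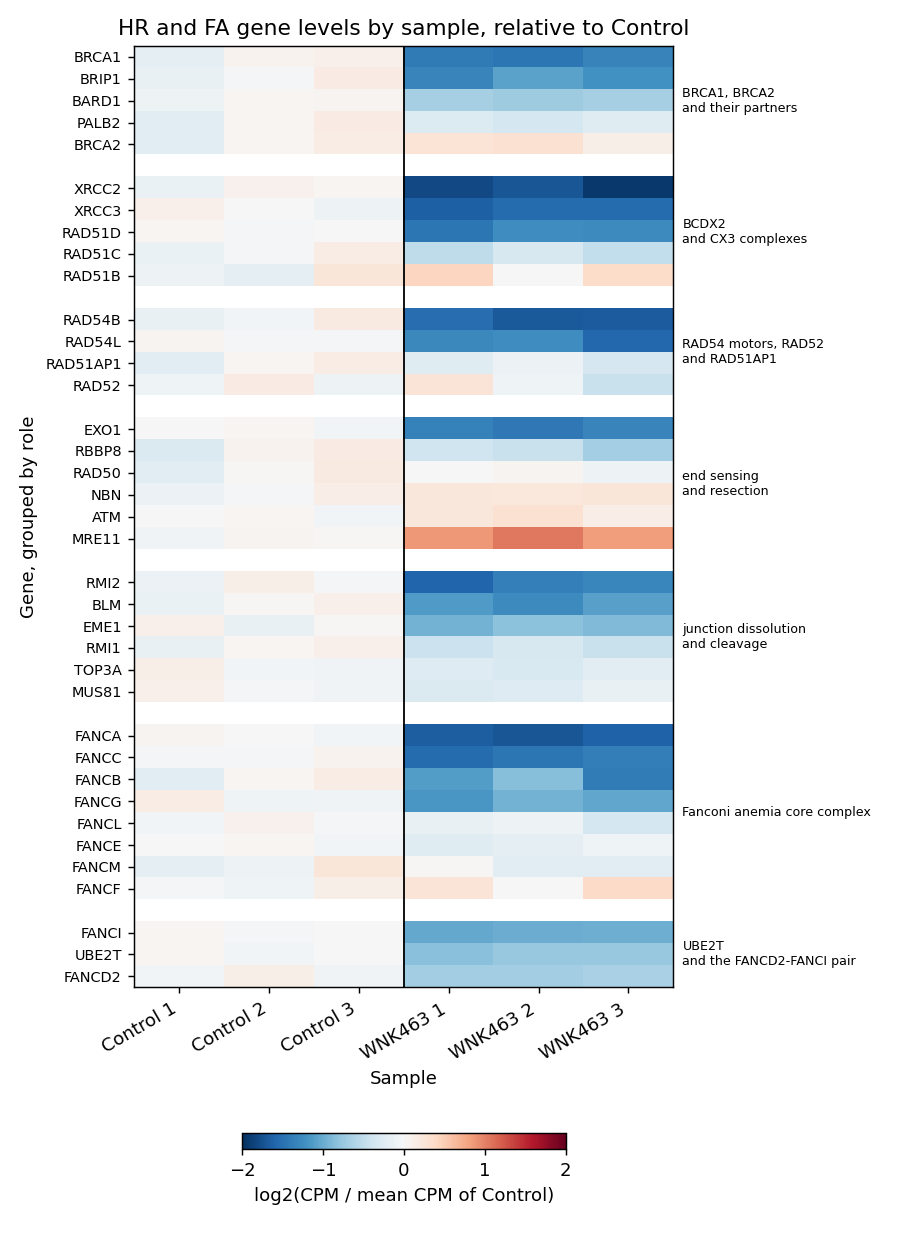
Level of each of the 37 genes (rows, grouped by role) in each of the 6 samples (columns), as log2 of the CPM over the mean CPM of Control, on the colour scale below. The WNK463 columns are blue in most rows, and *MRE11* is the row with the strongest red.

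The falls were graded rather than uniform. The 14 genes that fell at least 2-fold lay between -1.81 and -1.05 on the log2 scale, the other 13 called lower lay between -0.997 and -0.20, and the 6 that did not pass lay between -0.17 and 0.27. The SE ranged from 0.05 to 0.20. Every role had at least 1 gene called lower, and genes whose products sit in 1 complex often changed by unequal amounts.

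**Figure D2:**
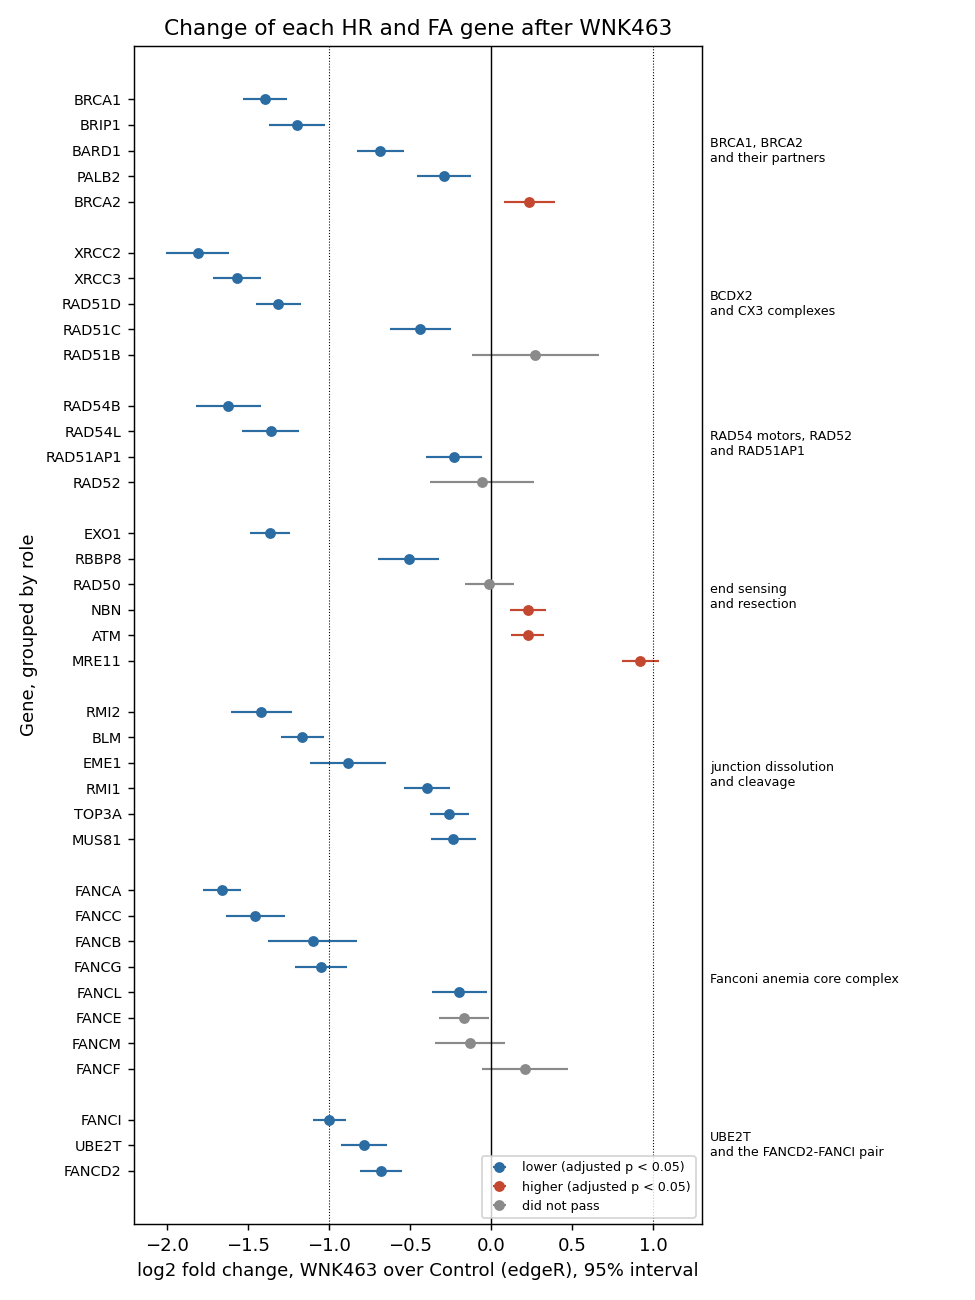
Log2 fold change of WNK463 over Control for each gene (x axis) with its 95% interval from edgeR, grouped by role, with dotted lines at -1 and 1. Blue genes were called lower, red genes higher and grey genes did not pass; *XRCC2* stands farthest to the left at -1.81 and *MRE11* farthest to the right at 0.92.

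Promoter sequences from RefSeq (GRCh38.p14, 250 bases before to 50 after a start) were matched for 33 of the 37 genes, with 44 promoters. *FANCI*, *NBN*, *RAD54B* and *RMI2* had none. E2F factors are known to bind promoters of S phase genes, and E2F-type words (TTTGGCGC, TTTCCCGC, TTTCGCGC and TTTGCCGC) were searched on both strands. They were in 6 of 44 promoters (13.6%), against 3.31% of all 35114 promoters in the table and 5.13% of those of tested genes. By gene, 4 of the 12 matched genes that fell at least 2-fold held such a word (33.3%), as did 2 of the other 21 (9.52%), and 6.99% of all tested genes with a promoter. In the 150 bases before the start alone, 4.55% of the 44 promoters held one, against 1.8% of all promoters and 2.74% of those of tested genes. By gene, 1 of the 12 held one there (8.33%), as did 1 of the other 21 (4.76%) and 3.86% of all tested genes with a promoter. The 7 sites are shown because they are the E2F-type words found, each as 30 bases on the gene's strand with the word in capitals:
XRCC2: tggcgttggtgGCGGGAAAgttgagtctct
FANCA: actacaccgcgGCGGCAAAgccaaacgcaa
FANCC, distal: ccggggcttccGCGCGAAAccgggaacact
FANCC, proximal: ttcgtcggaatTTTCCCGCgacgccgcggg
EXO1: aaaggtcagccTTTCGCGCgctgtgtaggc
FANCD2: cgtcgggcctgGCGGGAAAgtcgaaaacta
RMI1: ggcgcgagcgcGCGGCAAAtcgggcgggaa
The words in the *XRCC2* site (chr7:152676102-152676131, minus strand) and the *EXO1* site (chr1:241848197-241848226, plus strand) begin after the start. Their first bases are 22 and 5 bases into the transcript. The *FANCA* word (chr16:89816801-89816830, minus strand) and the distal *FANCC* word (chr9:95317863-95317892, minus strand) both begin at -172, and the proximal *FANCC* word (chr9:95317737-95317766, minus strand) begins at -46. The *FANCD2* word (chr3:10026424-10026453, plus strand) begins at -2 and spans the start. The *RMI1* word (chr9:83980762-83980791, plus strand) begins at -32 of 1 of the 2 *RMI1* starts. *EXO1* and *FANCC* also have 2 starts each, and their words were found at only 1 of them.

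CCAAT boxes (CCAAT on either strand) were in 38.6% of the 44 promoters and in 34.6% of all promoters, and CHR-type words (TTTGAA or TTCGAA, known from G2 and M phase genes) were in 9.09% and 16.4%. Of the promoters of tested genes, 34.8% held a CCAAT box and 12.1% a CHR-type word. None of the E2F-type words contains a CCAAT or CHR-type word. *MRE11*, the gene with the greatest rise, held no E2F-type word and 2 CCAAT boxes, shown in capitals on the gene's strand, the first of them reading as ATTGG because the box lies on the other strand:
MRE11, first: agcctgctcaggATTGGctcctgcgtgagg
MRE11, second: tgcgtgcggtagCCAATgagagccgaactg
These lie at chr11:94493954-94493983 and chr11:94493889-94493918 on the minus strand, with the boxes beginning at -127 and -62. A match is a description of the letters, and binding was not measured.

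**Figure D3:**
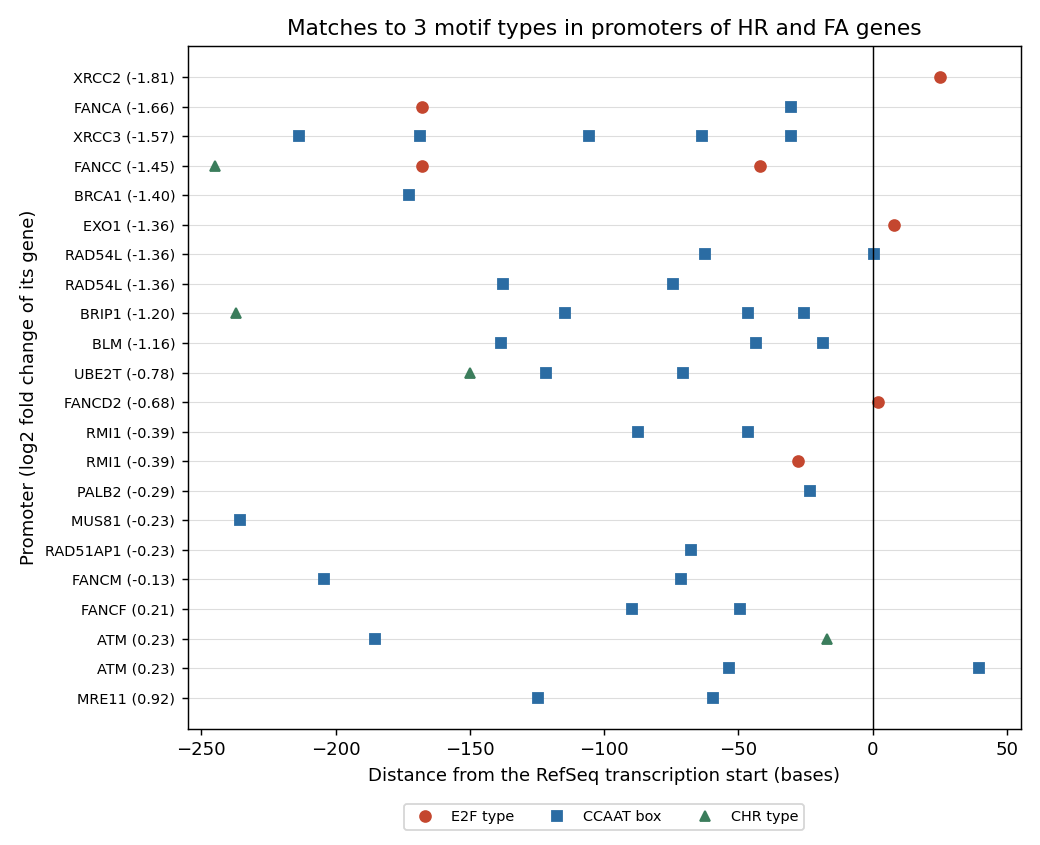
Position of each E2F-type word, CCAAT box and CHR-type word relative to the RefSeq transcription start (x axis, bases) in the promoters that held at least 1 of them, ordered by the log2 fold change of the gene. E2F-type words stand in the rows of *XRCC2*, *FANCA*, *FANCC*, *EXO1*, *FANCD2* and *RMI1*, and CCAAT boxes run from genes that fell to *MRE11*.

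The BRCA1 and BRCA2 arm changed unevenly, with 4 of 5 genes called lower and *BRCA2* called higher. *BRCA1*, the ubiquitin ligase subunit that promotes resection and recruits PALB2, was at 145, 172 and 176 CPM in Control and at 61.7, 60.6 and 65.2 CPM in WNK463. Every WNK463 sample was below every Control sample, a log2 fold change of -1.40 ± 0.07 (SE, adjusted p = 6.3e-12 by edgeR). *BRIP1*, the helicase bound by the BRCT repeats of BRCA1, was at 46.8, 50.9 and 58.0 CPM in Control and at 20.8, 24.6 and 22.4 CPM in WNK463, again without overlap (log2 fold change -1.20). *BARD1*, the obligate partner of BRCA1 in the ligase, fell less, with a log2 fold change of -0.68, from 39.1 to 43.7 CPM in Control to 25.6 to 26.5 CPM in WNK463. *PALB2*, the bridge between BRCA1 and BRCA2, had a log2 fold change of -0.29 (adjusted p = 0.0056 by edgeR), and this call was lost with total-count scaling (adjusted p = 0.17).

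*BRCA2*, which acts with PALB2 on resected single-stranded DNA, was at 52.4, 63.2 and 68.2 CPM in Control and at 74.3, 75.4 and 66.3 CPM in WNK463. The groups overlapped, since WNK463 3 lay below Control 3. The log2 fold change was 0.23 with an adjusted p of 0.015 by edgeR, and it no longer passed without Control 1 (log2 fold change 0.13, adjusted p = 0.091), without WNK463 1 (adjusted p = 0.068) or without WNK463 2 (adjusted p = 0.077). The log2 ratio of *BRCA1* to *BRCA2* counts within a sample, which does not depend on the scaling, was 1.43 ± 0.05 in Control and -0.20 ± 0.16 in WNK463 (SD, n = 3 each). It was lower in every WNK463 sample than in every Control sample. The pairs of genes compared in this way were chosen after their values were seen and carry no test.

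The genes of the BCDX2 and CX3 complexes, paralogs whose products aid strand invasion, had the lowest median of the 7 roles, -1.31, with 4 of 5 genes called lower and 3 at least 2-fold. *XRCC2* was at 28.7, 33.5 and 32.3 CPM in Control and at 8.999, 9.65 and 8.24 CPM in WNK463. The WNK463 samples lay close together and far below Control, and the log2 fold change of -1.81 ± 0.10 (SE, adjusted p = 2.7e-11 by edgeR), a 3.51-fold fall, was the largest fall of the 37 genes in this fit. *XRCC3* was at 63.4, 58.2 and 54.95 CPM in Control and at 19.0, 20.4 and 20.2 CPM in WNK463 (log2 fold change -1.57). *RAD51D*, whose product binds XRCC2 directly, was at 65.3, 61.7 and 63.1 CPM in Control and at 23.4, 26.9 and 26.3 CPM in WNK463 (log2 fold change -1.31). None of these 3 genes overlapped between the groups.

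*RAD51C*, a part of both complexes, fell less than its partners, with a log2 fold change of -0.44 (adjusted p = 5.8e-04 by edgeR). Its product pairs with XRCC3, and the log2 ratio of *RAD51C* to *XRCC3* counts was -1.29 ± 0.25 in Control and -0.16 ± 0.09 in WNK463 (SD, n = 3 each). *RAD51B* was the exception, at 3.59, 3.43 and 4.57 CPM in Control and at 5.19, 3.90 and 4.98 CPM in WNK463. The groups overlapped and the difference did not pass (log2 fold change 0.27, 95% interval -0.12 to 0.66, adjusted p = 0.23 by edgeR) and its count of 50 in Control 2 was the lowest of any of the 37 genes in a sample. *XRCC3* shares 76.7% of its exonic bases in GENCODE 29 with *KLC1*, a kinesin light chain gene on the opposite strand that fell by 0.47 on the log2 scale, and whether the counting used strand was not stated.

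Of the genes that aid joining and annealing, both RAD54 motors fell at least 2-fold and the other 2 lay near their Control level. *RAD54L*, the translocase that drives strand exchange, was at 40.1, 37.6 and 37.8 CPM in Control and at 15.8, 16.2 and 12.9 CPM in WNK463 (log2 fold change -1.36). Its paralog *RAD54B* was at 29.3, 31.1 and 36.6 CPM in Control and at 11.2, 10.1 and 10.2 CPM in WNK463, a log2 fold change of -1.62 ± 0.10 (adjusted p = 1.6e-10 by edgeR). Neither gene overlapped between the groups. *RAD54B* shares 59.1% of its exonic bases with *FSBP* on the same strand, which had a log2 fold change of -1.72, so reads could be split between these genes. *RAD51AP1*, which stimulates joint formation, was called lower by a small margin (log2 fold change -0.23, adjusted p = 0.028 by edgeR) although the groups overlapped, and the call was lost with total-count scaling (adjusted p = 0.46) and without Control 2, Control 3, WNK463 1 or WNK463 3 (adjusted p from 0.062 to 0.13). *RAD52*, which anneals complementary strands, was at 7.92, 9.47 and 7.87 CPM in Control and at 10.03, 7.97 and 6.19 CPM in WNK463. These values overlapped widely (log2 fold change -0.06, 95% interval -0.37 to 0.26, adjusted p = 0.77 by edgeR). On the TPM scale the direction turned, with a log2 fold change of 0.28 by limma on log2(TPM + 1) (adjusted p = 0.031).

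End sensing and resection had a median of 0.11: 3 of its 6 genes passed as higher, 2 as lower and 1 did not pass. *MRE11*, the nuclease of the MRE11-RAD50-NBN complex that first binds a break, was at 145, 158 and 156 CPM in Control and at 278, 316 and 272 CPM in WNK463. Each WNK463 sample exceeded each Control sample by a wide margin, a 1.89-fold rise (log2 fold change 0.92 ± 0.06, adjusted p = 2.0e-10 by edgeR). *RAD50*, the ATPase of the same complex, was at 111, 133 and 149 CPM in Control and at 131, 135 and 122 CPM in WNK463. The WNK463 values lay within the Control range, with a log2 fold change of -0.01 and a 95% interval of -0.16 to 0.14. *NBN*, the adaptor that binds ATM, was at 145, 155 and 171 CPM in Control and at 184, 181 and 186 CPM in WNK463, above Control in every sample by a small amount (log2 fold change 0.22, adjusted p = 0.0018 by edgeR).

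The 3 subunits of this complex therefore moved apart. The log2 ratio of *MRE11* to *RAD50* counts was 0.23 ± 0.16 in Control and 1.15 ± 0.07 in WNK463, and that of *MRE11* to *NBN* was -0.04 ± 0.09 and 0.65 ± 0.14 (SD, n = 3 each), without overlap in either. *RAD50* shares 79.7% of its exonic bases with the read-through gene AC116366.3 on the same strand, which had 0, 71 and 85 counts in Control and 149, 189 and 171 in WNK463. With both genes' counts summed, an alternative added after the values were seen, the log2 fold change of *RAD50* was 0.06 (adjusted p = 0.51 by edgeR).

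*ATM*, the kinase that signals double-strand breaks, was at 161, 164 and 154 CPM in Control and at 188, 197 and 176 CPM in WNK463. All WNK463 samples were above Control, with a log2 fold change of 0.23 (adjusted p = 9.0e-04 by edgeR). The genes called lower in this role were *EXO1* and *RBBP8*. *EXO1*, the exonuclease of long-range resection, was at 81.7, 83.5 and 78.0 CPM in Control and at 31.7, 30.2 and 32.6 CPM in WNK463 (log2 fold change -1.36, adjusted p = 2.5e-12 by edgeR), and *RBBP8*, which encodes the MRE11 cofactor CtIP, had a log2 fold change of -0.51. Neither overlapped between the groups.

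**Figure D4:**
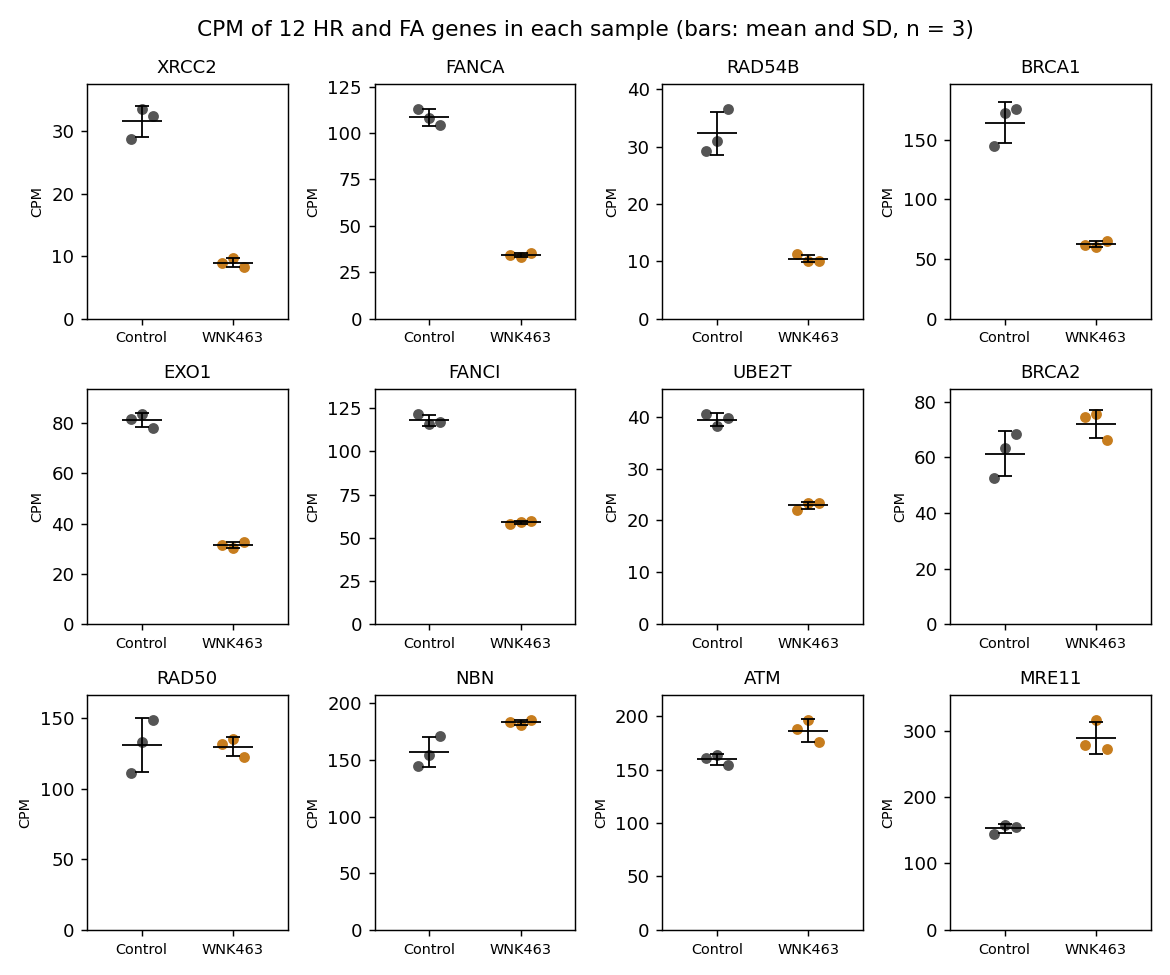
CPM (y axis, from 0) of 12 genes in the 3 Control and 3 WNK463 samples, with the mean and SD (n = 3) as bars. *XRCC2*, *FANCA*, *RAD54B*, *BRCA1*, *EXO1*, *FANCI* and *UBE2T* lie lower in every WNK463 sample, *BRCA2* and *RAD50* overlap between the groups, and *NBN*, *ATM* and *MRE11* lie higher in every WNK463 sample.

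All 6 genes that take joined molecules apart were called lower and none overlapped between the groups, with 2 falls of at least 2-fold and a median of -0.64. *BLM*, the helicase of the dissolvasome, was at 93.6, 104 and 110 CPM in Control and at 46.9, 42.3 and 48.0 CPM in WNK463 (log2 fold change -1.16). *RMI2*, the small subunit of the same complex, was at 31.1, 36.7 and 33.3 CPM in Control and at 11.2, 13.02 and 13.6 CPM in WNK463 (log2 fold change -1.42 ± 0.10, adjusted p = 4.6e-10 by edgeR). Their partners fell less: *RMI1* had a log2 fold change of -0.39 and the topoisomerase gene *TOP3A* one of -0.26. The log2 ratio of *BLM* to *TOP3A* counts was 0.17 ± 0.22 in Control and -0.73 ± 0.06 in WNK463, and that of *RMI2* to *RMI1* was -0.68 ± 0.10 and -1.71 ± 0.15 (SD, n = 3 each). The *TOP3A* call was lost with total-count scaling (adjusted p = 0.12).

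The MUS81-EME1 nuclease, which cuts junctions that are not dissolved, showed a like gap between its subunits. *EME1* had a log2 fold change of -0.88 (12.2 to 14.6 CPM in Control, 7.01 to 7.67 CPM in WNK463). *MUS81*, the catalytic subunit, was at 46.5, 42.1 and 41.0 CPM in Control and at 35.5, 36.1 and 38.9 CPM in WNK463, close together but without overlap (log2 fold change -0.23, adjusted p = 0.0077 by edgeR). Its call was lost with total-count scaling (adjusted p = 0.31). *EME1* and *MUS81* share 16.4% and 13.9% of their exonic bases with *LRRC59* and *CFL1* on the opposite strand, which had log2 fold changes of -1.38 and -0.69.

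On counts, the Fanconi anemia core complex split into genes that fell at least 2-fold and genes that hardly moved, with 5 of 8 called lower, 3 not called and a median of -0.62. The split was less clear in the authors' TPM. There the log2 ratios of mean TPM were -0.95 for *FANCA*, -0.85 for *FANCG*, -1.20 for *FANCC* and -0.03 for *FANCB*. *FANCA*, which forms a module with FANCG, was at 113, 108 and 104 CPM in Control and at 34.6, 33.3 and 35.2 CPM in WNK463. The WNK463 samples lay close together and far below Control, a 3.16-fold fall with the smallest adjusted p of the 37 genes (log2 fold change -1.66 ± 0.06, adjusted p = 1.3e-13 by edgeR). *FANCG* was at 57.2, 48.9 and 49.2 CPM in Control and at 23.1, 26.8 and 25.2 CPM in WNK463 (log2 fold change -1.05). *FANCC*, of the FANCC-FANCE-FANCF module that binds FANCD2, was at 26.5, 26.4 and 28.5 CPM in Control and at 9.30, 10 and 10.4 CPM in WNK463 (log2 fold change -1.45). *FANCB*, which stabilizes the ligase subunit FANCL, was at 12.97, 15.3 and 16.6 CPM in Control and at 6.89, 8.26 and 5.68 CPM in WNK463 (log2 fold change -1.10).

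The rest of the core complex lay near its Control level. *FANCE* did not pass although its groups did not overlap (log2 fold change -0.17, adjusted p = 0.069 by edgeR), and *FANCF* did not pass either (log2 fold change 0.21, adjusted p = 0.17 by edgeR), so that the 3 genes of the FANCC-FANCE-FANCF module had -1.45, -0.17 and 0.21. *FANCF* passed as higher with total-count scaling (adjusted p = 0.023). *FANCL*, the ubiquitin ligase itself, had a log2 fold change of -0.20 with an adjusted p of 0.048 by edgeR, and the call was lost with total-count scaling (adjusted p = 0.66), with DESeq2 (adjusted p = 0.084), with at least 10 counts in every sample (adjusted p = 0.071) and without Control 2, WNK463 1 or WNK463 3 (adjusted p from 0.057 to 0.22). *FANCM*, the translocase that anchors the complex on DNA, was at 19.5, 20.7 and 26.4 CPM in Control and at 22.6, 19.3 and 19.0 CPM in WNK463, which overlapped (log2 fold change -0.13, 95% interval -0.35 to 0.09).

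Downstream, the conjugating enzyme and both substrates of the ubiquitin step fell, none of them 2-fold. *FANCI* was at 121, 116 and 117 CPM in Control and at 58.1, 59.2 and 59.9 CPM in WNK463, without overlap, and its log2 fold change of -0.997 (adjusted p = 1.8e-11 by edgeR) lay just outside the 2-fold limit. *FANCD2* was at 64.1, 72.6 and 63.7 CPM in Control and at 41.1, 41.3 and 42.5 CPM in WNK463, also without overlap (log2 fold change -0.68). The conjugating enzyme *UBE2T* had a log2 fold change of -0.78, from 38.1 to 40.4 CPM in Control to 22.1 to 23.3 CPM in WNK463. The log2 ratio of *FANCD2* to *FANCI* counts was -0.82 ± 0.13 in Control and -0.51 ± 0.01 in WNK463 (SD, n = 3 each).

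The order of the genes by level, which needs a value per length, was read from the TPM of the authors. In Control, *UBE2T* was highest with a mean of 89.9 TPM, followed by *MRE11* with 73.7 TPM, *XRCC3* with 69.7 TPM, *NBN* with 68.5 TPM and *FANCI* with 67.9 TPM, and *FANCF* was lowest with 4.74 TPM. In WNK463, *MRE11* came first with 145 TPM, followed by *NBN* with 87.9 TPM, *UBE2T* with 58.5 TPM and *RAD50* with 53.9 TPM, and *XRCC2* was lowest with 3.99 TPM. *XRCC3*, *NBN* and *FANCI* all lay within the SD of *MRE11* in Control (6.502 TPM, n = 3). *XRCC3* went from rank 3 to rank 21 and *XRCC2* from rank 29 to rank 37. The summed TPM of the 37 genes was 1265 ± 62.2 in Control and 998.6 ± 12.5 in WNK463 (SD, n = 3 each).

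The count and TPM scales gave different calls for some genes. How the deposited TPM was made from the counts is not given in the sources used here. The change in counts per TPM within a gene is therefore given only as a description. In each sample it was taken relative to the median over the well-counted genes, so a shift between the scales common to all genes drops out. This centred change lay below the 5th percentile of 9938 well-counted genes (-0.13 on the log2 scale) in 7 of the 37 genes. Its median was -0.03 both over the 37 genes and over all 9938, and the latter is largely set by the centring. *FANCB* had the largest such drop, -0.80: its TPM was 6.07, 8.03 and 2.68 in WNK463, and its log2 ratio of mean TPM was -0.03 where the count log2 fold change was -1.10. *FANCA* had a drop of -0.51 and a log2 ratio of mean TPM of -0.95, against -1.66 in counts. *XRCC3* moved the other way, with a rise of 0.41 and a log2 ratio of mean TPM of -1.82. *RAD51B* had a rise of 0.52 with 1 high value, 13.2 TPM in Control 3, and its groups overlapped. The fall of *FANCB* was called on counts and not by limma on log2(TPM + 1), where its log2 fold change was -0.11 (adjusted p = 0.76). The calls of *PALB2*, *RAD51AP1*, *RMI1*, *TOP3A*, *MUS81* and *FANCL* were lost in that fit too. In the same limma fit *FANCF* (adjusted p = 0.036) and *RAD52* (adjusted p = 0.031) passed as higher.

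**Figure D5:**
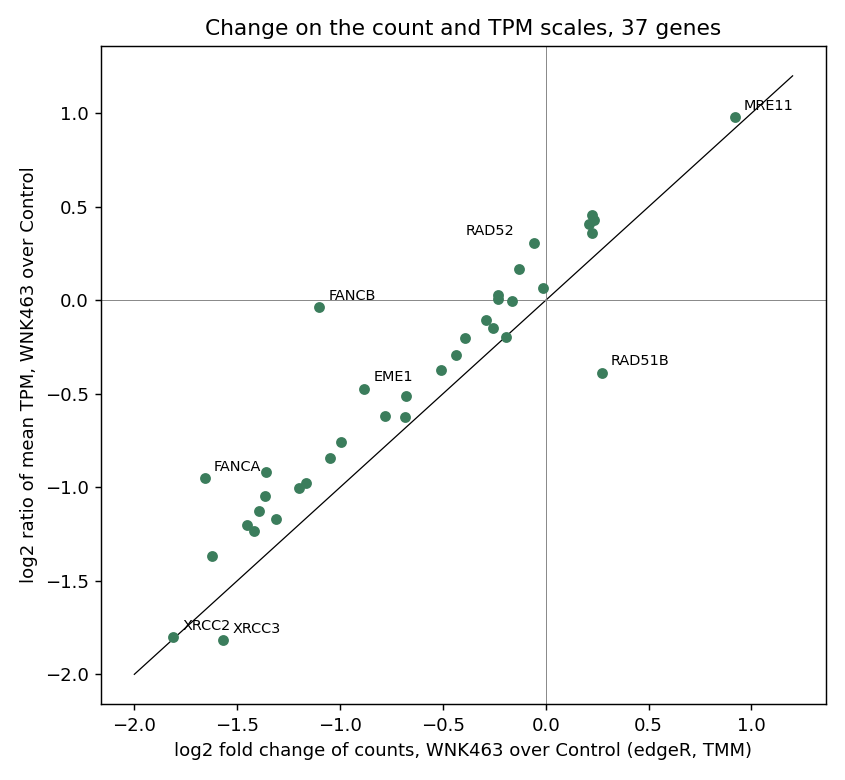
Log2 fold change of counts by edgeR (x axis) against the log2 ratio of the group means of TPM (y axis) for the 37 genes, with the line of equal change. Most points lie a little above the line, *FANCB* and *FANCA* lie far above it, and *RAD51B* and *XRCC3* lie below it.

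A list of 40 further genes covered other parts of the pathway, though not all of them. Of the 39 tested, 23 were called lower (59%, against 35.3% of all tested genes), 7 higher (35.5% of all tested genes were) and 9 did not pass. A fall of at least 2-fold was called in 7 of them (17.9%, against 5.55%), and the median log2 fold change was -0.33. The difference from the 37 genes was not tested. *DMC1*, the meiotic recombinase, was below the filter on low counts.

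The 3 genes with the smallest p among those called lower were *TONSL*, *RFWD3* and *MCM8*. *TONSL*, which binds new histones behind the fork, was at 150, 151 and 140 CPM in Control and at 45.3, 42.6 and 37.6 CPM in WNK463 (log2 fold change -1.81). *RFWD3*, a ubiquitin ligase that acts at RPA-coated crosslinks, was at 160, 153 and 149 CPM in Control and at 62.1, 62.3 and 62.0 CPM in WNK463 (log2 fold change -1.31). *MCM8*, a helicase subunit of recombination, was at 48.2, 50.6 and 54.4 CPM in Control and at 18.2, 16.6 and 15.4 CPM in WNK463 (log2 fold change -1.61). None of these overlapped between the groups.

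The 4 genes with the smallest p among those called higher were *UIMC1*, *EME2*, *HELQ* and *ABRAXAS1*, and *UIMC1* and *ABRAXAS1* encode parts of the BRCA1-A complex that binds ubiquitin at breaks. The other subunits of this complex on the list, *BABAM1*, *BABAM2* and *BRCC3*, were called lower, with log2 fold changes of -0.41, -0.22 and -0.20. *BRCC3* passed by a small margin (adjusted p = 0.039 by edgeR) and its groups overlapped. *UIMC1* was at 28.3, 30.7 and 34.0 CPM in Control and at 49.5, 49.8 and 49.4 CPM in WNK463 (log2 fold change 0.68). *ABRAXAS1* was at 31.2, 33.6 and 37.3 CPM in Control and at 46.7, 46.5 and 51.9 CPM in WNK463 (log2 fold change 0.51). *EME2*, which encodes the other partner of MUS81, was at 18.7, 18.4 and 17.6 CPM in Control and at 27.4, 28.5 and 27.1 CPM in WNK463, opposite in direction to *EME1* (log2 fold change 0.60). *HELQ*, a helicase of crosslink repair, was at 18.8, 21.9 and 22.6 CPM in Control and at 34.0, 32.2 and 31.0 CPM in WNK463 (log2 fold change 0.62). All 4 lay above Control in every WNK463 sample.

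The changes above are relative to the TMM scaling, which set the 2 groups apart, with factors of 0.944 to 0.952 in Control and 1.05 to 1.06 in WNK463. With total counts in its place the median over all tested genes was higher by 0.15 on the log2 scale, and the share of higher genes among those called went from 50.2% to 63.9%. On that scale 22 of the 37 genes were called lower and 5 higher, where 3123 and 5525 of all 11973 tested genes were. There 12 of the 37 genes fell at least 2-fold, a share not computed over all genes, and the median of the 37 was -0.53. *RAD54L*, *FANCA* and *FANCL* share 25.1%, 23.6% and 18.7% of their exonic bases with *LRRC41*, *ZNF276* and *VRK2* on the opposite strand, which had log2 fold changes of 0.36, -0.17 and 0.14. GENCODE 29 also lists pseudogenes named for *FANCD2*, *RAD51AP1*, *MRE11* and *RBBP8*, with which reads could be shared. These are examples, and pseudogenes of the other genes are not covered here.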

How the data were processed

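RNA-seq of 3 Control and 3 WNK463 samples of MV4-11 cells was analysed. The authors deposited 1 table of 20348 genes that holds, for each sample, counts as whole numbers and TPM values. Columns with the authors' comparison of the groups (log2 fold change, p and FDR) were not used. The submitters' processing notes name GRCh38, fastp, Bowtie2, HISAT2, StringTie, RSEM, DESeq2 and edgeR without a role; whether counting used strand is not given in the sources used here. The counts may be rounded estimates.

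Counts were tested with edgeR 4.0.16 in R 4.3.3 (TMM, filterByExpr at its defaults, quasi-likelihood test, Benjamini-Hochberg adjustment over 11973 genes, no replicate block), after the procedure was tested on simulated data. Alternatives were other scaling and filters, DESeq2 1.42.0, limma 3.58.1 on log2(TPM + 1) and log2(TPM + 0.1), a replicate block, a test against a 1.5-fold change and each sample left out. Replicates differed by more than sampling noise (chi-square per degree of freedom 2.62 to 7.23). A motif search used RefSeq promoters, and exon overlaps used GENCODE 29. Values in every sample were given for genes with the largest and smallest change of each role, for all genes called with at least a 2-fold change, for all called higher, and for called genes of the further list with the smallest p in each direction, of which 1 is not reported here. The 37 genes and all lists were chosen with earlier results of these data known.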

Additional observations from a re-analysis of the deposited data

How the results depend on the processing

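Of 555 combinations of the 37 genes with 15 alternatives, 492 kept the direction and the side of the threshold. Another 33 kept the direction but no longer passed, and 3 kept it and newly passed. The other 27 changed sign and were counted only as such, although *RAD51AP1* and *MUS81* also lost their call there and *RAD52* newly passed with limma. Of the 14 genes that fell at least 2-fold, 13 kept their call under all of them, the exception being *FANCB* with the 3 limma fits. The count of genes that fell at least 2-fold was 8 with limma on log2(TPM + 1), on log2(TPM + 0.1) and without a filter, 13 to 15 with a sample left out, and 17 genes passed the test against a 1.5-fold change. The share over all genes was not computed for these counts. The median log2 fold change of the 37 genes was -0.53 with total counts, -0.35, -0.36 and -0.35 with these limma fits, and -0.72 to -0.63 with a sample left out. With the limma fits 20, 20 and 19 of the 37 genes were called lower. Of all tested genes, 2658 of 11399, 2646 of 11399 and 2635 of 15775 were called lower there. By edgeR it was 4222 of 11973, and with total counts 3123 of 11973. In the limma fits 65.2%, 65.2% and 67.0% of the called genes were higher. Signs changed for genes that were not called or were called by a small margin: *RAD51B* was -0.10, -0.0846 and -0.10 with limma, *RAD51AP1* 0.01 in each limma fit, *MUS81* 0.0265, 0.0271 and 0.0265, *RAD52* 0.28, 0.30 and 0.28 with limma (adjusted p = 0.031, 0.032 and 0.048) and 0.10 with total counts, *RAD50* 0.0804, 0.0822 and 0.0804 with limma, 0.14 with total counts, 0.0045 with at least 10 counts in every sample and 0.0614 with the read-through counts added, and *FANCM* 0.17, 0.19 and 0.17 with limma and 0.0201 with total counts. With a sample left out *RAD52* ranged from -0.24 to 0.10, *RAD50* from -0.12 to 0.0789 and *FANCM* from -0.22 to 0.0017. The cause was not tested.

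The values showed no sign that the replicate numbers pair the samples. Same-numbered deviations correlated at 0.012, 0.027 and -0.068, and 2 of 6 samples correlated best with their own number. This cannot tell how the cultures were set up, which was not stated. With the replicate block the 37 genes still gave 27 called lower, 4 higher and 14 that fell at least 2-fold, and over all genes 4175 called lower and 4223 higher. The lowest count of any of the 37 genes in a sample was 50, for *RAD51B*, which also had the largest SE of them (0.20).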
